A study of Mus musculus with 48 samples.

Results

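RNA levels after 6 h of differentiation were compared with those at 0 h in C2C12 cells, an established line of mouse myoblasts, which are the dividing precursors of skeletal muscle. The comparison rests on 6 of the 48 arrays of the series, the 3 that the labels place at 6 h and the 3 that they place at 0 h. The cells at 0 h were in DMEM with 20% fetal bovine serum, and those at 6 h had spent 6 h in DMEM with 2% horse serum. The labels name no drug and no engineered allele for either group, and all cells belong to the 1 line. Plates were harvested separately, and the 3 replicates of each time came from successive passages. Groups of 3 arrays at 3 h and at 9 h, in the same 2% serum, were used to follow the change before and after 6 h. All 48 arrays entered the main model behind the tests. Among them are cells in 20% serum 24 h before induction. Others are cells at 1 h and 3 h in 2% serum with 50 µM of the drug cycloheximide. The labels name no cells kept in growth medium beyond 0 h, so the lowered serum and the further hours in culture cannot be told apart.

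Skeletal muscle differentiation is driven by basic helix-loop-helix factors of the Myod1 family, which pair with E proteins and bind the E-box, a short DNA motif found before many muscle genes. Id proteins lack a DNA-binding region, bind the same E proteins and so keep them from the muscle factors. In myoblasts, serum and bone morphogenetic proteins maintain Id transcription, and low serum is the usual way to start differentiation in culture.

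Values are given on the log2 scale of RMA, a method that corrects, normalizes and summarises the probes of an array, so a difference of 1 is a 2-fold change. Each of the 18193 genes was represented by 1 probe set. The cell line's labels were checked against markers. Myod1, the myoblast determination factor, was at 10.05 ± 0.40 at 0 h and 9.66 ± 0.38 at 6 h (SD, n = 3), and Des, which encodes the muscle intermediate filament desmin, was at 10.83 ± 0.33 and 11.02 ± 0.28. The means of 5 leukocyte markers lay between 2.99 and 4.68 in both groups, and those of 3 endothelial markers between 3.29 and 4.11, against a median of 5.25 over all genes. Arrays of a group correlated with r from 0.9917 to 0.9958, and medians of the 6 arrays ran from 4.02 to 4.06.

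At 6 h, 92 genes differed from 0 h at a limma adjusted p under 0.05, 0.506% of the genes tested. Of these, 27 had risen (0.148%) and 65 had fallen (0.357%). The genes that rose included muscle regulators (Cavin4, Klhl40, Apobec2), the transferrin receptor gene Tfrc and the receptor gene Gpr176, and those that fell included Id1, Id2, Id3, Smad7, Vegfa, Foxc1 and Foxc2. Changes of at least 2-fold were seen in 17 genes, 8 risen and 9 fallen. In each of the 92 genes the 3 arrays of one time lay above the 3 of the other, which held for 15.3% of all genes (6.74% with 6 h above and 8.6% with 6 h below). Such a separation fixes the direction as the same at all 3 replicate numbers. Of all genes, 17.6% were higher at 6 h at all 3 numbers and 20.4% lower.

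With the replicate number as a block, 465 genes were called (2.56%), 192 risen (1.06%) and 273 fallen (1.5%), and the 92 were among them. Genes that are named below only because this blocked fit called them were chosen after their values were seen. Only 12 of the 92 kept their call without any 1 of the 6 arrays. These were Tfrc, Cavin4, Gpr176, Klhl30, Baiap2l1, Snx7, Foxc2, Zfand4, Vegfa, Foxc1, Steap2 and Tifa, of which Steap2 and Tifa are named here after their values were seen. The number called was 38, 28 and 56 without replicate 1, 2 or 3 of 0 h, and 23, 94 and 35 without replicate 1, 2 or 3 of 6 h. A fit on the 6 arrays alone called 3 genes, Gpr176 (adjusted p = 0.00565), Mgst2 (0.0246) and Tfrc (0.0246). Centring the arrays on housekeeping genes left 27 calls and ended those of 28 named genes: Id1, Id3, Smad7, Vegfa, Apobec2, Klhl40, Snx7, Foxc1, Bhlhe40, Cryab, Crybg1, Dixdc1, Dlx1, E2f2, Ehd4, Ets2, Foxred2, Fuom, H1f2, Hacd4, Lrig1, Nrn1, Pald1, Slc25a37, Slc43a2, Slco3a1, Swap70 and Zfp365. With that centring 762 genes had an unadjusted limma p under 0.05, beside 1462 in the main fit. The median difference of all genes was −0.005 with it and 0.004 as deposited.

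**Figure D1:**
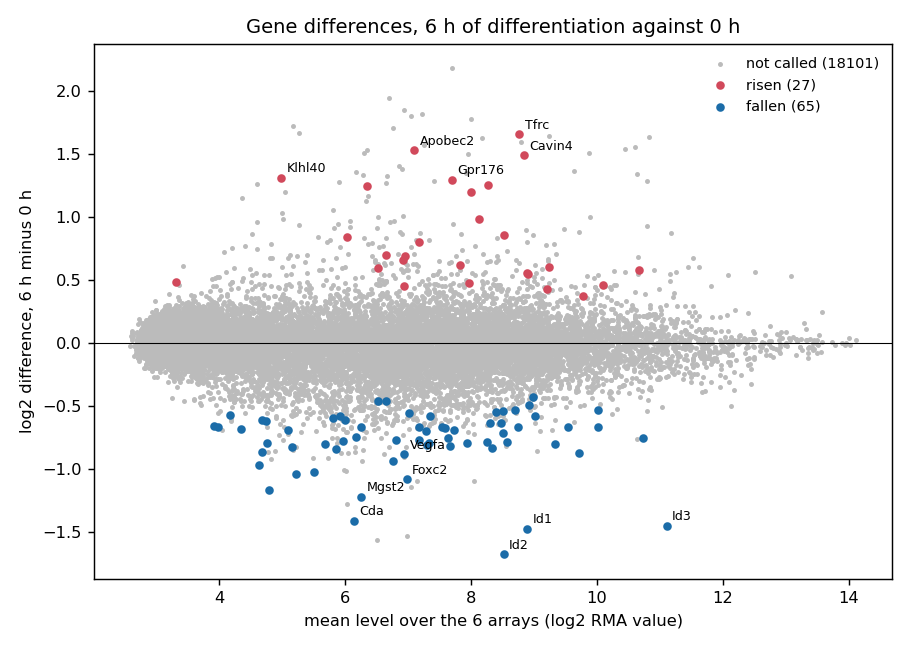
Difference between 6 h and 0 h (vertical axis, log2) against the mean level over the 6 arrays (horizontal axis, log2 RMA value) for all 18193 genes. Red points are the 27 genes that rose and blue points the 65 that fell, and grey points are the genes that were not called. Some grey points lie as far from 0 as the coloured ones.

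Of the called genes, Id2, Id1 and Id3 gave the largest falls. Id2 stood at 9.67, 9.28 and 9.12 on the 0 h arrays of replicates 1, 2 and 3, and at 8.16, 7.35 and 7.53 at 6 h. Id1 stood at 10.002, 9.69 and 9.19 and then at 8.73, 7.91 and 7.81. Id3, the most abundant by signal, stood at 11.95, 11.97 and 11.56 and then at 10.95, 10.17 and 10.02. In none of the 3 genes did the groups overlap, and replicate 1 was the highest of the 6 h arrays in each. The falls were 1.68 for Id2 (log2 difference −1.68, SE 0.32, adjusted p = 0.00728), 1.47 for Id1 (−1.47, SE 0.34, adjusted p = 0.0268) and 1.45 for Id3 (−1.45, SE 0.29, adjusted p = 0.00874). Both further probe sets for Id2 were also lower at 6 h, by −1.87 and −0.53. Id4 was at the low end of the scale in both groups, with a difference of −0.06.

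All 3 Id genes were lower at 6 h at each replicate number, but each call was lost in at least 1 fit that left out an array. Those fits had no replicate block. Id2 was not called without replicate 1 of 0 h (adjusted p = 0.0547). Id3 was not called without replicate 1 or 2 of 0 h or replicate 3 of 6 h (0.0521 to 0.0914), and Id1 was not called without replicate 1 or 2 of 0 h or replicate 2 or 3 of 6 h (0.0964 to 0.189). Centring the arrays on housekeeping genes also ended the calls for Id1 (0.128) and Id3 (0.0509). In the blocked fit the adjusted p was 1.11e-06 for Id2, 2.53e-05 for Id1 and 1.45e-05 for Id3.

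Id genes are transcribed downstream of Smad proteins, which carry bone morphogenetic protein and TGF-beta signals to the nucleus, and Smad7 encodes an inhibitory Smad that the same pathway induces. Smad7 stood at 6.76, 6.49 and 6.37 at 0 h and at 5.84, 5.80 and 5.76 at 6 h. The 6 h arrays lay close together and below all 0 h arrays, a fall of 0.74 (log2 difference −0.74, SE 0.15, adjusted p = 0.0110). That call was lost without replicate 1 of 0 h or replicate 1 or 3 of 6 h (0.0506 to 0.0915) and with housekeeping centring (0.216). Smad6, the related inhibitor of bone morphogenetic protein signals, had a difference of −0.87 and was called with the replicate block alone (adjusted p = 0.59 without the block and 0.0218 with it). Likewise Atoh8, a bone morphogenetic protein target, differed by −0.75 (0.29 and 0.0183). Fst, which encodes follistatin, a secreted antagonist of activin and myostatin, differed by 1.13 in the other direction (0.303 and 0.00194). Of 18 measured genes of TGF-beta and bone morphogenetic protein feedback, 0 rose and 1 fell, and with the block 1 rose and 3 fell. Over all genes, 0.148% rose and 0.357% fell, and with the block 1.06% rose and 1.5% fell. The counts of every list below, where 6 h is compared with 0 h, stand beside these same shares. The median difference of the 18 genes was −0.08 beside 0.004 over all genes.

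Among 24 repressors of myogenesis, 0 rose and 4 fell: the 3 Id genes and Bhlhe40, a basic helix-loop-helix repressor that is also a clock component. Bhlhe40 went from 8.14, 8.50 and 8.37 to 7.22, 7.76 and 7.64, with a difference of −0.80 (SE 0.17, adjusted p = 0.0199). The groups did not overlap, but the call was lost without replicate 2 or 3 of 0 h or replicate 1 or 3 of 6 h (up to 0.267). Notch receptors and their targets Hes1, Hey1 and Heyl passed neither fit, with differences from −0.11 for Notch2 to 0.38 for Heyl. With the block, Hes6, which antagonises Hes1 and is known to favour differentiation, rose by 0.58 (0.0120), and the Notch ligand gene Dll1 rose by 0.88 (0.0284). The whole list had a median of −0.05.

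**Figure D2:**
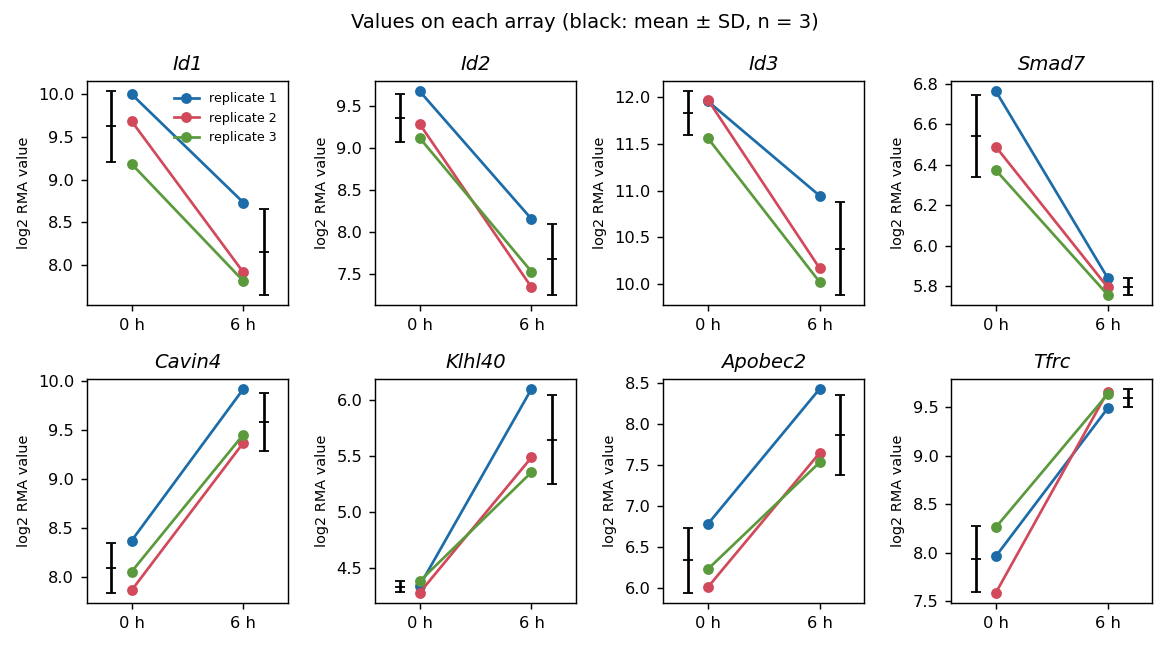
Log2 RMA value at 0 h and 6 h for 8 genes, with a coloured line for each replicate number and the mean ± SD (n = 3) in black beside each time. In all 8 genes the 3 arrays of the 2 times do not overlap. For Klhl40 the 0 h arrays lie close together while replicate 1 is highest at 6 h.

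Muscle regulators were among the genes that rose. Cavin4 encodes a muscle cavin, a coat protein of caveolae. It stood at 8.37, 7.86 and 8.05 at 0 h and at 9.92, 9.37 and 9.45 at 6 h. Every 6 h array lay above every 0 h array, and the rise of 1.49 (SE 0.16, adjusted p = 7.76e-07) had the lowest p of all genes. It was called without any 1 array and under the other settings, except with only the 6 arrays (0.0523).

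Klhl40 encodes a kelch protein that stabilises thin filament proteins of muscle and whose loss causes nemaline myopathy in humans. Its levels were 4.34, 4.28 and 4.38 at 0 h and 6.10, 5.49 and 5.35 at 6 h, a rise of 1.31 (SE 0.25, adjusted p = 0.00795). It was low at 0 h on every array and highest on replicate 1 at 6 h, without which it was not called (0.116). Apobec2, a muscle member of the cytidine deaminase family, went from 6.77, 6.00 and 6.22 to 8.42, 7.64 and 7.53, a rise of 1.53 (SE 0.33, adjusted p = 0.0185). Replicate 1 was the highest at both times, and the call was lost without replicate 2 or 3 of 0 h or replicate 1 of 6 h (0.0775 to 0.243). A second probe set for Apobec2 stayed near the low end of the scale, with a difference of −0.11. Housekeeping centring ended both calls (0.0831 for Klhl40 and 0.115 for Apobec2).

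Cryab, the small heat shock protein alphaB-crystallin, which protects desmin and other filaments, rose by 0.58 (SE 0.14, adjusted p = 0.0343). Its highest adjusted p without 1 array was 0.251, and it was not called with housekeeping centring (0.119). Klhl30, another kelch family gene, is outside the list. It went from 7.41, 7.15 and 7.67 to 8.73, 8.46 and 8.63, and its rise of 1.19 (SE 0.16, adjusted p = 4.57e-05) held without any 1 array.

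The bases before the start of transcription are shown for the 3 genes of the early muscle list that rose most among those called without the block, because Myod1-family factors bind E-boxes before many muscle genes. They are the 250 bases before each start, 5′ to 3′ on the gene's strand, from RefSeq on GRCm38.p6, with each CANNTG (the E-box in its general form) in capitals.
Cavin4, chr4:48663264-48663513, plus strand: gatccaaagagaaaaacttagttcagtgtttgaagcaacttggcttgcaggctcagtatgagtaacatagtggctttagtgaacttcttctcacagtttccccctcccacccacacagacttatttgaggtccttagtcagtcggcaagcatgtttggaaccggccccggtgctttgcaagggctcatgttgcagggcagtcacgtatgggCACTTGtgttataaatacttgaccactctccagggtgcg
Klhl40, chr9:121777357-121777606, plus strand: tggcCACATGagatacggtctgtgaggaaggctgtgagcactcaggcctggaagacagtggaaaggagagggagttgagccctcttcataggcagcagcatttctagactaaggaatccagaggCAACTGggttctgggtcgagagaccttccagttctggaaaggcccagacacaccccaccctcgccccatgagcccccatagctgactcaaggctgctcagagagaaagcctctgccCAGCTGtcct
Apobec2, chr17:48432729-48432978, minus strand: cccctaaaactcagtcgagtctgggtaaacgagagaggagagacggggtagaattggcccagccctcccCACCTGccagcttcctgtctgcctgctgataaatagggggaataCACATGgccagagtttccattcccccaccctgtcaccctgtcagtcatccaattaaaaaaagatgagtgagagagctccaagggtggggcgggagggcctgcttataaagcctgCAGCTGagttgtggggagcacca
The Cavin4 window holds 1 such match, and the Klhl40 and Apobec2 windows hold 3 each, of which 1 in each is CAGCTG. That motif is one form of CANNTG, and both read alike on either strand. Of 32851 windows of this length in the table, 66.2% held CANNTG and 13.0% held CAGCTG. The 25 windows of 22 genes that rose held CANNTG in 64.0% and CAGCTG in 4 windows, and the 76 windows of 50 genes that fell held them in 48.7% and 13.2%. A match describes these letters and does not show that a protein binds there.

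Of 31 early muscle genes and muscle regulators, 4 rose (Cavin4, Apobec2, Klhl40 and Cryab) and 0 fell. With the replicate block 16 rose and 0 fell. All 31 had a difference above 0, from 0.009 to 2.18, with a median of 0.73 beside 0.004 over all genes. The block added Mybph, a myosin-binding protein, with 2.18 (0.295 without the block and 0.00857 with it), Klhl41, a partner of nebulin, with 1.84 (0.178 and 0.00152), and Lmod3, an actin nucleator of thin filaments, with 1.67 (0.261 and 0.000927).

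Sarcomere genes differed between replicate numbers as well as between times. Acta1, the skeletal actin, stood at 10.79, 8.98 and 9.71 at 0 h in replicates 1, 2 and 3, and at 12.35, 10.37 and 11.41 at 6 h. Replicate 1 at 0 h was above replicate 2 at 6 h, so the groups overlapped, while each 6 h array was higher than the 0 h array of the same number. The difference of 1.55 (SE 0.60) had an adjusted p of 0.365, while the blocked fit gave 0.0116.

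Embryonic myosin Myh3 had the same order of replicates, at 7.06, 4.65 and 6.02 and then 9.01, 6.34 and 7.48, a difference of 1.70 (SE 0.80, adjusted p = 0.582, and 0.0258 with the block). Ckm, the muscle creatine kinase, went from 6.20, 5.11 and 5.19 to 8.10, 5.94 and 6.51, a difference of 1.35 (SE 0.55, adjusted p = 0.426, and 0.0179 with the block). In both genes replicate 1 was the highest at each time and replicate 2 the lowest.

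Of 30 sarcomere genes, 0 passed without the block and 14 rose with it. The median level of the list was 7.39, 6.26 and 6.84 on the 0 h arrays and 9.06, 7.08 and 7.75 on the 6 h arrays. Its median difference was 1.30, 0.57 and 0.87 at replicates 1, 2 and 3, so it was positive at each number. It was largest at the number with the highest level at 0 h. A higher level at 6 h at all 3 replicate numbers was found for 26 of the 30 genes (86.7%), beside 17.6% of all genes. In RNA from a whole culture, more differentiating cells and more muscle RNA per cell cannot be told apart.

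**Figure D3:**
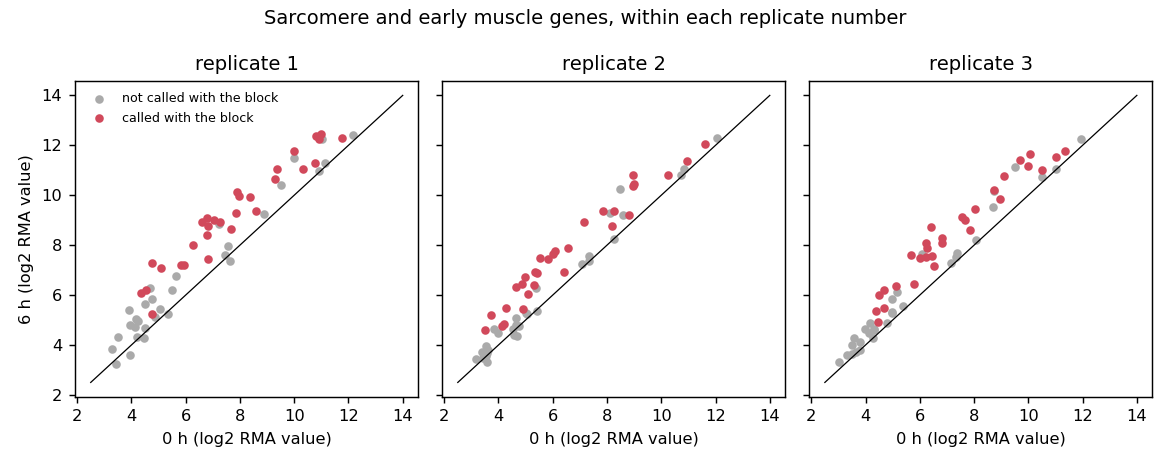
Level at 6 h (vertical axis) against level at 0 h (horizontal axis, both log2 RMA values) of the 61 sarcomere and early muscle genes, in a panel for each replicate number, with the line of equal levels. Red points are genes called with the replicate number as a block. Nearly all red points lie above the line in each panel, with the points of replicate 1 furthest to the right.

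Some genes of membrane fusion were called in the blocked fit alone. Mymk, the muscle fusion protein myomaker, was at 8.40, 6.42 and 6.52 at 0 h and 10.25, 7.91 and 8.50 at 6 h, a difference of 1.78 (adjusted p = 0.433, and 0.0170 with the block). Mymx, its small partner myomixer, differed by 1.35 (0.318 and 0.0181). The muscle cadherin gene Cdh15 differed by 0.59 (0.287 and 0.00328) and the laminin receptor gene Itga7 by 0.47 (0.353 and 0.0291). Of 17 genes of adhesion and fusion 0 passed without the block and 4 rose with it, and the list's median of −0.05 lay near that of all genes. Among 18 genes of excitation-contraction coupling and the synapse, 0 passed without the block and 2 rose with it, Casq2 (1.82) and Chrnb1 (0.55), which encode a calcium store protein and an acetylcholine receptor subunit.

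The transcription factors that direct muscle differentiation passed neither of the fits on 48 arrays. Myog, which drives terminal differentiation, was already at 11.42, 9.32 and 9.71 at 0 h and reached 12.27, 10.76 and 11.27, a difference of 1.28 (SE 0.64, adjusted p = 0.629, and 0.125 with the block). Myod1 differed by −0.39 (0.879), Myf5, the other early determination factor, by −0.64 (0.713), and Mef2c, their partner, by 0.60 (0.898). Of 11 such factors, 6 were higher and 5 lower at 6 h, with a median of 0.11. A blocked fit on the 6 arrays alone called Myog (adjusted p = 0.00796) and Myf5 (0.0259), and the pairs of each gene had the same sign, at 0.85, 1.44 and 1.56 for Myog and −0.39, −0.76 and −0.77 for Myf5.

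A list of 20 targets of SRF, a factor that responds to actin dynamics, and of the regulators MRTF and YAP gave 0 calls without the block. With it 4 rose: Acta2, Tagln, Tpm1 and Fhl1. Acta2 and Tagln also mark smooth muscle. The 4 smooth muscle markers had mean levels from 8.13 to 8.60 on the 0 h arrays and from 8.62 to 9.14 on the 6 h arrays, and all 4 were higher at 6 h, while the defining marker Myh11 was at 3.21 ± 0.09 and 3.23 ± 0.14. Their part in the muscle gene changes was not tested.

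Tfrc encodes the transferrin receptor, through which cells take up iron, and its rise was the largest among the called genes. It stood at 7.97, 7.59 and 8.26 at 0 h and at 9.49, 9.66 and 9.64 at 6 h. The 6 h arrays were close together and all above 0 h, a rise of 1.66 (SE 0.29, adjusted p = 0.00308) that held without any 1 array. The other 5 probe sets for this transcript, 3 of them array controls, were higher by 0.29 to 0.98. Slc25a37, the mitochondrial iron importer mitoferrin, went the other way, from 8.60, 8.70 and 8.94 to 7.96, 8.01 and 7.77. Its difference of −0.83 (SE 0.20, adjusted p = 0.0449) was lost without any 1 of the 6 arrays (0.0667 to 0.240). Of 14 genes of iron uptake and storage, these were the only 2 called without the block. With it, Hjv, a muscle-expressed bone morphogenetic protein coreceptor, rose too, by 1.27 (0.0238). The iron regulatory proteins Ireb2 and Aco1 differed by 0.16 and −0.003, and ferritin heavy chain Fth1 by −0.06.

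Tfrc had been high a day earlier as well. Its mean was 9.39 ± 0.34 a full 24 h before induction and 7.94 ± 0.34 at induction. It was 8.98 ± 0.17 after 3 h and 9.60 ± 0.09 after 6 h, and later means lay between 9.12 and 9.72. The difference between 0 h and 24 h before was −1.45 (adjusted p = 0.000421), and both comparisons share the 0 h arrays.

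Several receptors and signalling genes rose. Gpr176, an orphan G protein-coupled receptor gene, went from 7.002, 7.09 and 7.05 to 8.44, 8.25 and 8.33, a rise of 1.29 (SE 0.20, adjusted p = 0.000983) with a narrow spread in both groups. Inhbb, which encodes the activin beta B subunit, rose by 0.86 (SE 0.17, adjusted p = 0.0114), and the ligand gene Wnt9a rose by 0.84 (SE 0.17, adjusted p = 0.0124). Dtx4, a deltex ubiquitin ligase of the Notch pathway, rose by 1.25 (SE 0.25, adjusted p = 0.00881). Lrig1, which restrains epidermal growth factor receptors, rose by 0.60 (adjusted p = 0.0359). Of these 5 genes only Gpr176 kept its call without each array. The highest adjusted p without 1 array was 0.146 for Inhbb (without replicates 2 or 3 of 0 h or 1 or 3 of 6 h its call was lost), 0.132 for Wnt9a (lost without replicate 1 or 2 of 0 h or 3 of 6 h), 0.134 for Dtx4 (lost without replicate 2 of 0 h or 3 of 6 h) and 0.318 for Lrig1 (kept only without replicate 1 of 6 h).

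Genes of the cell surface, membrane shape and matrix also rose. Baiap2l1, which bends membranes and links them to actin, went from 7.73, 7.44 and 7.71 to 8.67, 8.43 and 8.73, a rise of 0.99 (SE 0.15, adjusted p = 0.000579) seen on every array. Snx7, a sorting nexin of endosomes, rose by 0.60 (SE 0.10, adjusted p = 0.00259), with 6 h arrays between 9.52 and 9.55. Both kept their calls without any 1 array, but housekeeping centring ended that of Snx7 (0.166). Mfap5, a microfibril glycoprotein of the matrix, rose by 1.24 (SE 0.23, adjusted p = 0.00579), and was not called without replicate 1 of 6 h (0.114).

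Smaller rises concerned Swap70, a regulator of Rac and actin (0.62), Ehd4, an endosomal ATPase (0.56), Pald1 (0.65), the amino acid transporter gene Slc43a2 (0.69) and the organic anion transporter gene Slco3a1 (0.70), with adjusted p from 0.00874 to 0.0315. Each was lost without at least 2 of the 6 arrays and with housekeeping centring.

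Vegfa and Pdgfra were among the genes that fell. Vegfa, the vascular growth factor, went from 7.17, 7.65 and 7.34 to 6.44, 6.63 and 6.44, a fall of 0.88 (log2 difference −0.88, SE 0.15, adjusted p = 0.00308) that held without any 1 array, though not with housekeeping centring (0.115). Its second probe set differed by −0.48. Vegfa was the 1 called member of 16 genes of hypoxia and glycolysis, and with the block Hk2, a hexokinase, fell as well (−0.67, 0.00701). Pdgfra, a receptor for platelet-derived growth factor, went from 7.06, 7.14 and 7.47 to 5.94, 6.45 and 6.47, a difference of −0.94 (SE 0.21, adjusted p = 0.0268). It was called without replicate 2 of 6 h and lost without each of the other 5 arrays (up to 0.311). Pdgfra also marks fibroblasts. Of 3 further fibroblast markers none was called, with Dcn at 6.71 ± 0.57 and 7.15 ± 0.47 and Lum and Thy1 between 3.09 and 3.44, and the part of such cells was not tested.

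Several transcription factor genes fell. Foxc2, a forkhead factor of mesenchyme, went from 7.71, 7.65 and 7.19 to 6.31, 6.64 and 6.36, a fall of 1.08 (log2 difference −1.08, SE 0.19, adjusted p = 0.00308). Its relative Foxc1 went from 7.52, 7.58 and 7.41 to 6.77, 6.77 and 6.96, a fall of 0.67 (−0.67, SE 0.11, adjusted p = 0.00140). Both held without any 1 array, and the 6 h arrays of each were all below those of 0 h. With housekeeping centring Foxc2 was called (0.0335) and Foxc1 was not (0.195).

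The homeobox gene Dlx1 differed by −0.97 (adjusted p = 0.0307), the cAMP-responsive factor gene Creb5 by −1.16 (0.0199), and Ets2, a factor activated by growth factor kinases, by −0.53 (0.0110). Zinc finger genes Zfand4 and Zfp365 differed by −1.04 (0.00446) and −1.02 (0.00874). Of these 5, Zfand4 alone kept its call without each array (up to 0.0490). For the other 4 the highest adjusted p was 0.255 for Dlx1, 0.267 for Creb5, 0.173 for Ets2 and 0.114 for Zfp365, and each was lost without replicate 1 of 6 h, among other arrays. For Creb5 only the probe set used stood above the low end of the scale, and 3 others lay between 3.01 and 3.38 in both groups.

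Genes of enzymes fell too. Cda, the cytidine deaminase of pyrimidine salvage, went from 6.88, 6.87 and 6.77 to 4.96, 5.75 and 5.59, a fall of 1.41 (log2 difference −1.41, SE 0.24, adjusted p = 0.00308). The 0 h arrays lay close together and replicate 1 of 6 h was the lowest, and without that array the adjusted p was 0.0506. Mgst2, a microsomal glutathione transferase, fell by 1.22 (−1.22, SE 0.25, adjusted p = 0.0138), with 6 h arrays between 5.48 and 5.83 and 0 h arrays between 6.75 and 6.99. It was lost without replicate 1 or 2 of 0 h or replicate 1 of 6 h (up to 0.116).

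Smaller differences were found for Hacd4, an enzyme of fatty acid elongation (−0.80), Fuom, a fucose mutarotase (−0.81), Foxred2, a flavoprotein of the endoplasmic reticulum (−0.84), Dixdc1, a Wnt pathway protein (−0.86), the neurite protein neuritin encoded by Nrn1 (−0.82) and Crybg1 (−0.82), with adjusted p from 0.0108 to 0.0435. All 6 were lost without at least 2 of the arrays and with housekeeping centring.

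Few cell cycle genes passed the test. E2f2, a factor of S phase entry, rose by 0.80 (SE 0.18, adjusted p = 0.0262), from 6.96, 6.54 and 6.82 to 7.46, 7.58 and 7.71, and was kept only without replicate 1 of 0 h (up to 0.251). It was the 1 call among 14 genes of G1 cyclins and E2F factors. H1f2, a linker histone, fell by 0.87 (log2 difference −0.87, SE 0.21, adjusted p = 0.0379), from 10.58, 10.19 and 9.68 to 9.23, 9.36 and 9.23, and was kept only without replicate 3 of 0 h (up to 0.287). Among 12 genes of cell cycle exit 0 passed without the block and 1 rose with it. This was Cdkn1a, the inhibitor p21 that holds cyclin-dependent kinases in check, with a difference of 0.93 (adjusted p = 0.364 without the block and 0.00176 with it). Its levels were 11.03, 9.88 and 10.05 at 0 h and 11.84, 10.97 and 10.95 at 6 h, so replicate 1 of 0 h overlapped with the 6 h arrays. Cyclin D1, Ccnd1, differed by −0.61 (0.176 and 0.0360), and the replication licensing gene Cdt1 by −0.86 (0.0681 and 0.0139).

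Of 24 DNA replication genes 0 were called without the block, and 21 were lower at 6 h, with a median of −0.27. A lower level at all 3 replicate numbers was found for 20 of them (83.3%), beside 20.4% of all genes. Of 23 mitosis genes 0 were called in either fit and 23 were lower, with a median of −0.30, but the medians at replicates 1, 2 and 3 were −0.35, −0.04 and −0.51, so the difference was smallest at replicate 2. A lower level at all 3 numbers was found for 12 of them (52.2%).

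Immediate early genes, whose response to a change of serum is brief, did not pass the test without the block. Fos differed by 0.27 (adjusted p = 0.966), Egr1 by 0.05 (0.995) and Myc by −0.15 (0.992). Of 26 such genes 0 passed, and 2 fell with the block, Fosl2 (−0.37) and Ier5 (−0.38). Igf2, the growth factor gene that is strongly induced in myotubes, differed by 0.65 (SE 0.92, adjusted p = 0.989), with 10.38, 8.28 and 8.03 at 0 h and 11.22, 8.84 and 8.59 at 6 h. Replicate 1 stood apart at both times, and each replicate was higher at 6 h than at 0 h. A blocked fit on the 6 arrays alone gave an adjusted p of 0.0179 for Igf2, and the blocked fit on 48 arrays gave 0.603.

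Chaperone genes of the endoplasmic reticulum were called in the blocked fit alone. Hspa5, the main chaperone there, went from 11.74, 11.71 and 11.98 to 12.22, 12.46 and 12.37, a difference of 0.54 (adjusted p = 0.0515, and 0.00603 with the block). Its helper Dnajb9 differed by 0.66 (0.308 and 0.00365), and Chac1, a glutathione-degrading target of the amino acid response, by −1.56 (0.108 and 0.00426). Of the 19 genes in the list on unfolded proteins and amino acid stress, 0 passed without the block, and 2 rose and 1 fell with it. The clock outputs Dbp and Per3 differed by −1.09 (0.179 and 0.0315) and −0.94 (0.0906 and 0.0203), while the core clock genes Arntl and Clock differed by −0.14 and 0.19 and passed neither fit.

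The step from 3 h to 6 h asks what changed within the same medium. It gave 12 called genes (0.066%), 4 risen (0.022%) and 8 fallen (0.044%), so that 33.3% of the calls were rises. After a further quantile normalization 17 were called, of which 52.9% were rises, and with the replicate block 37 were called (0.203%), 19 risen (0.104%) and 18 fallen (0.0989%). Each of the 12 was lost without at least 3 of the 6 arrays, and 0 to 6 genes were called when 1 array was left out. With the mean of a gene's probe sets 8 genes were called, of which 4 were among the 12.

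Of the 8 that fell, 6 (Alpk2, Hivep3, Timp3, Rbm12, Mms22l and, by a small margin, Ets2) had their highest mean of the 4 times at 3 h. The 8 were selected for lying lower at 6 h than at 3 h, so a high mean at 3 h is partly built in. Alpk2, an alpha-kinase gene, had means of 5.03 ± 0.28, 6.51 ± 0.33 and 5.24 ± 0.33 (SD, n = 3) over 0, 3 and 6 h, a step of −1.28 (SE 0.21, adjusted p = 0.00764). Hivep3, a zinc finger factor gene, was at 5.32, 5.99 and 4.72, a step of −1.28 (SE 0.22, adjusted p = 0.00764). The other probe sets for Hivep3 had means between 3.52 and 4.30 at 0 h and 6 h, near the low end of the scale. Timp3, a matrix-bound inhibitor of metalloproteinases, was at 9.35, 10.25 and 9.01, a step of −1.24 (SE 0.26, adjusted p = 0.0489), and its 3 h arrays lay between 10.23 and 10.28. Rbm12 and Mms22l stepped by −0.81 (0.00814) and −0.70 (0.0489).

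Zfp365, Ets2 and Foxc1 had 3 h means of 5.96, 10.30 and 7.35 beside 0 h means of 6.02, 10.28 and 7.50, and their steps to 6 h were −0.97 (0.0489), −0.55 (0.0396) and −0.51 (0.0489). All 3 are also among the 65 that fell against 0 h. None of the 8 kept its call without replicate 1 of 3 h, and their adjusted p reached 0.234 to 0.382 without 1 array.

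The 4 that rose from 3 h to 6 h included 2 enzymes of sterol synthesis. Msmo1, a sterol methyl oxidase, was at 8.50, 8.93 and 8.37 at 3 h and 9.30, 10.10 and 9.70 at 6 h, a step of 1.10 (SE 0.19, adjusted p = 0.00764). Fdft1, squalene synthase, was at 9.11, 9.44 and 9.27 and then 9.91, 10.52 and 10.44, a step of 1.02 (SE 0.21, adjusted p = 0.0489). Fdft1 was read by a probe set of a kind that can cross-hybridise. In both genes all 6 h arrays lay above all 3 h arrays, and replicate 2 was the highest.

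Against 0 h neither was called without the block, with 0.71 for Msmo1 and 0.54 for Fdft1. The level at 0 h lay between those at 3 h and 6 h, at 8.99 ± 0.12 and 9.75 ± 0.13. With the block, Sqle, squalene epoxidase, and Cyp51, lanosterol demethylase, also rose from 3 h, by 0.63 (0.0485) and 0.78 (0.0358).

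Of 15 genes of cholesterol synthesis and uptake, all 15 were higher at 6 h than at 3 h, with a median step of 0.63 beside 0.004 over all genes, and 2 rose without the block and 4 with it. Against 0 h, 13 were higher, with medians of −0.02, 0.61 and 0.23 at replicates 1, 2 and 3, so the difference was absent from the median of replicate 1. The 2 other genes that rose from 3 h were Slc43a2, by 0.82 (SE 0.16, adjusted p = 0.0401), and Itsn1, an endocytic scaffold gene, by 0.46 (SE 0.10, adjusted p = 0.0489). The probe set for Itsn1 can cross-hybridise too. Against 0 h it differed by 0.29, and the other probe sets for Itsn1 differed by −0.15 to 0.25. Both calls were lost without any 1 array (up to 0.284 and 0.367), Msmo1 without replicate 1 or 3 of 3 h or 2 or 3 of 6 h (up to 0.234), and Fdft1 without each array but replicate 1 of 6 h (up to 0.373).

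**Figure D4:**
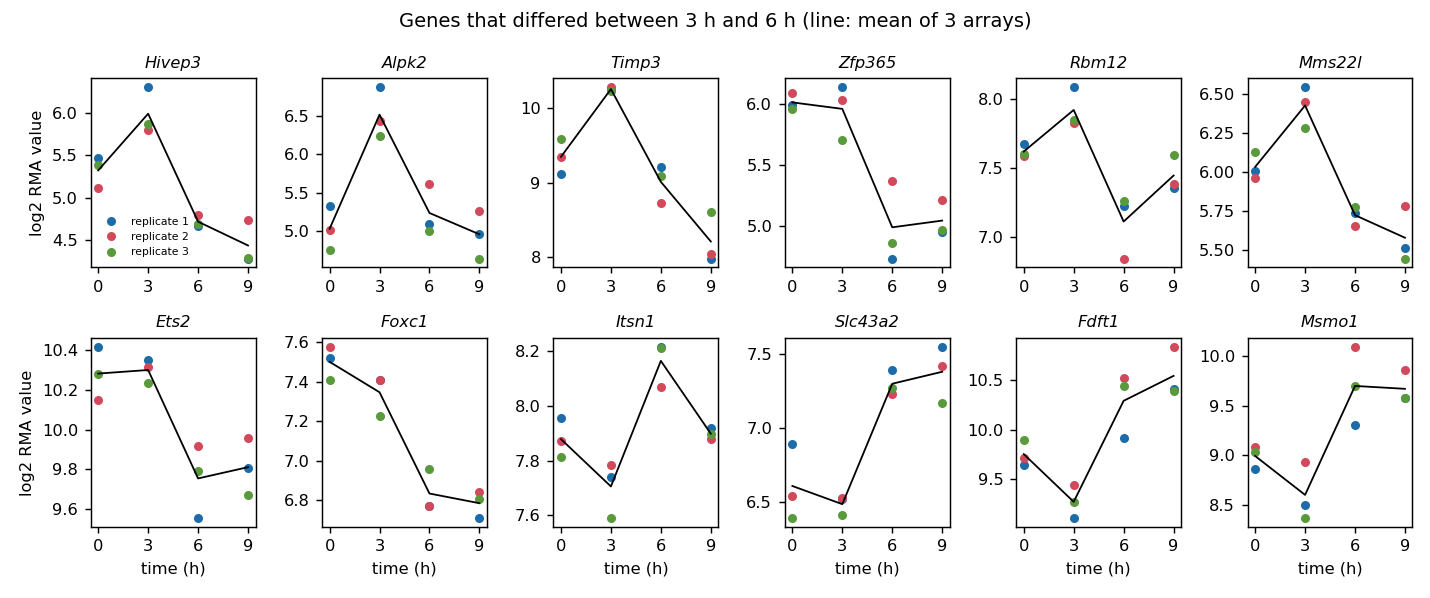
Log2 RMA values of the 12 genes called between 3 h and 6 h on each array at 0, 3, 6 and 9 h, coloured by replicate number, with a line through the means of 3 arrays. Alpk2, Hivep3, Timp3, Rbm12 and Mms22l peak at 3 h. Fdft1, Msmo1 and, by a small margin, Slc43a2 dip at 3 h and are higher at 6 h and 9 h. The genes were chosen for their difference between 3 h and 6 h, so peaks and dips at 3 h are partly built in.

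From 6 h to 9 h, limma called 0 genes (0.0%) with or without the block. An unadjusted p under 0.05 was found for 594 genes without the block, 377 higher and 217 lower at 9 h, and for 1097 with it. The lowest adjusted p was 0.999 and 0.35. The sarcomere list had a median step of 0.37 with 28 of 30 genes higher at 9 h, beside 0.02 over all genes.

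Most of the genes called at 6 h were also called later, in comparisons that share the 0 h arrays. The genes were chosen with those arrays, so the counts are a description. At 3 h, 9 of the 27 that rose were called risen (0.198% of all genes) and 14 of the 65 that fell were called fallen (0.192% of all genes). At 9 h the counts were 20 of 27 (0.748% of all genes) and 50 of 65 (0.61%). After 144 h they were 20 of 27 (13.5% of all genes) and 52 of 65 (14.9%), while 3 of the 27 were called fallen and 3 of the 65 risen. Over the day before induction, 7.26% of all genes were called risen and 5.86% fallen. Of the 27, 11 had been called risen and 4 fallen in that comparison, and of the 65, 19 risen and 5 fallen.

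The muscle regulators were higher at 144 h than at 6 h. Klhl40 had means of 4.33 ± 0.05, 5.64 ± 0.40, 7.23 ± 0.29 and 9.05 ± 0.39 (SD, n = 3) over 0, 6, 24 and 144 h. Apobec2 went from 6.33 ± 0.40 and 7.86 ± 0.49 to 9.23 ± 0.34 and 11.28 ± 0.27 at the same times. Cavin4 had reached 9.69 ± 0.05 by 3 h, was 9.58 ± 0.30 at 6 h and 9.56 ± 0.24 at 12 h, and stood at 11.42 ± 0.11 after 144 h.

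Other genes were lower again later. Gpr176 peaked at 8.69 ± 0.07 at 3 h, was at 8.34 ± 0.10 at 6 h and fell to 6.24 ± 0.08 at 24 h, below its 0 h level of 7.05 ± 0.04. Swap70 had means of 7.51 ± 0.09, 8.31 ± 0.07, 8.13 ± 0.21 and 6.51 ± 0.20 over 0, 3, 6 and 48 h. Inhbb was between 8.95 and 8.98 from 6 h to 12 h and at 7.26 ± 0.35 at 48 h. Bhlhe40 was lowest at 3 h and 6 h, at 7.50 ± 0.38 and 7.54 ± 0.28, and stood at 10.12 ± 0.08 at 96 h.

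The Id genes were already lower at 3 h, where Id1 (adjusted p = 0.0131) and Id3 (0.00815) passed the test and Id2 (0.123) did not. Id1 was at 7.99 ± 0.42 at 3 h and 8.15 ± 0.50 at 6 h. Id2 was at 8.23 ± 0.41 and 7.68 ± 0.42 at these times. Id3 was at 10.39 ± 0.36 and 10.38 ± 0.50, and later at 8.70 ± 0.35 at 48 h.

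**Figure D5:**
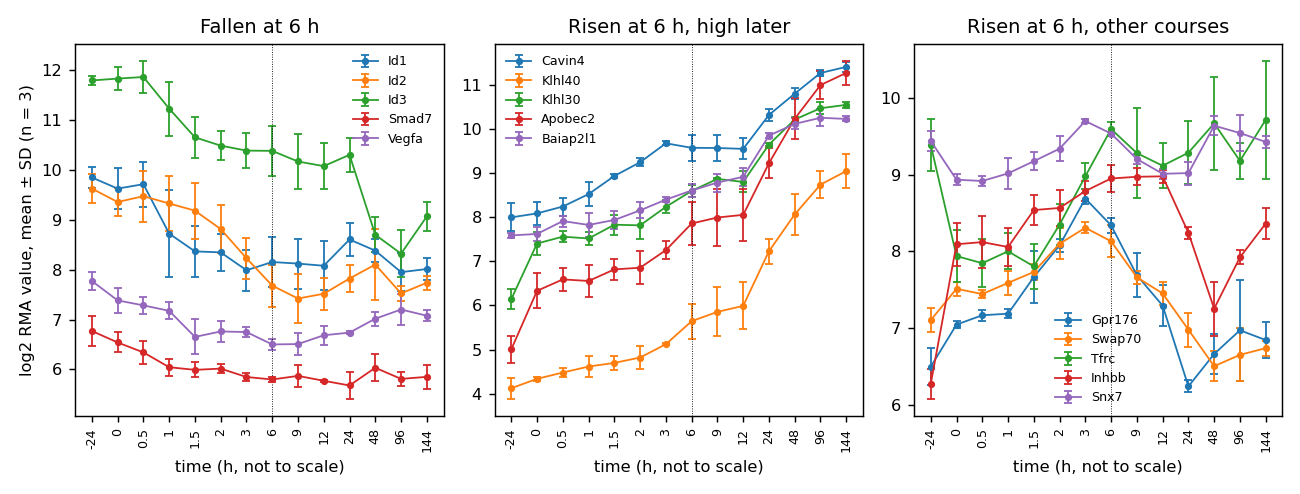
Mean ± SD (n = 3) of the log2 RMA value at 14 times from 24 h before induction to 144 h, with a dotted line at 6 h. Times are evenly spaced and not to scale. Id1, Id2 and Smad7 stay low after 6 h, the muscle genes are highest at late times, with Cavin4 between 9.56 and 9.69 from 3 h to 12 h, and Gpr176 and Swap70 rise by 3 h and then drop below their 0 h level.

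In 4 further lists 1 gene each was called, in the blocked fit alone: Foxo1 (−0.61, 0.00673) among 20 FoxO genes and targets, Hsph1 (0.67, 0.00326) among 11 heat shock genes, Igfbp4 (0.85, 0.0187) among 13 of the insulin-like growth factor axis and Thbs1 (0.67, 0.0183) among 29 of the extracellular matrix. That fit called 1.06% of all genes risen and 1.5% fallen, so 1 gene says little about a list of this size. Lists without a call in either fit at 6 h were those of MAP kinase and growth factor feedback (21 genes, median 0.03), NF-kB targets and cytokines (21, −0.07), ribosome biogenesis (24, 0.14), aminoacyl-tRNA synthetases (13, −0.12), fatty acid synthesis (10, −0.14) and the interferon response (13, −0.04). Ribosome biogenesis genes were higher in 21 of 24 cases, and all 13 synthetase genes were lower, each by small amounts. The markers of adipocytes and of bone and cartilage gave 0 calls among 5 genes each, with Adipoq at 3.04 ± 0.01 and 3.12 ± 0.22 and Sp7 at 3.88 ± 0.12 and 3.79 ± 0.05. Not all members were that low. Among the adipocyte markers Lpl stood at 10.52 ± 0.66 and 9.95 ± 0.97, and Cebpa at 7.45 ± 0.45 and 7.23 ± 0.27. Pparg was at 5.22 ± 0.05 and 4.74 ± 0.47, and the cartilage marker Sox9 at 6.90 ± 0.15 and 6.68 ± 0.23.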

How the data were processed

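Total RNA was taken with Trizol and labelled as biotinylated cRNA from 5 µg for Affymetrix MOE430v2 arrays, per the labels' protocols. The deposited values are on the log2 scale and, per the submitters' processing notes, were made with RMA. Its version, and whether 1 run covered every array, are not given in the sources used here. No further normalization was applied.

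Of 45101 probe sets, 64 are controls. Probe sets listed for exactly 1 gene were used, 34945 in all, and each of 18193 genes was represented by its probe set of highest mean level (48 arrays). The name of that probe set marks possible cross-hybridisation for 1545 genes. Gene symbols came from the platform annotation, and 18032 matched a RefSeq symbol.

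Using limma 3.58.1, all 48 arrays entered one linear model with a coefficient for each of the 16 groups (R 4.3.3, 32 residual degrees of freedom, eBayes at its default settings). Tests were two-sided, with Benjamini-Hochberg adjustment over all genes within a comparison. A gene was called at an adjusted p under 0.05, and rose or fell only if called. SE is from the model and SD from 3 arrays. The script was tested on simulated data. The precision is limited by the number of arrays, 3 in each group.

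Triplicates used growths from successive passages, per the design text. The deviations from the group means of arrays with the same replicate number correlated with 0.49, 0.25 and 0.36 between 6 h and 0 h, with 0.34, 0.33 and 0.51 between 6 h and 3 h, and with 0.52, 0.31 and 0.30 between 9 h and 6 h. The numbers were therefore taken to pair the arrays, and values from a fit with the replicate number as a block are given where that fit changes a call. That a number stands for the same passage at every time is not stated in the labels. No more is known of how far the replicates were independent, so p values measure the spread between these arrays.

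The text names, among called genes without overlap between arrays, up to 20 that rose and 20 that fell by the most (up to 8 each between 3 h and 6 h), for every list up to 4 of its called genes, and 18 genes that are always given. Genes with only a clone-type name and small RNAs are not named. The groups, gene lists and tests were chosen with earlier results of these data known. Promoter windows came from RefSeq on GRCm38.p6, and figures were drawn with matplotlib 3.10.9. Alternatives were other sets of arrays, the block, moderation with trend and robust settings, quantile normalization, housekeeping centring, other probe set rules, a filter on dim genes, a joint reference and leaving out each array.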

Additional observations from a re-analysis of the deposited data

How the results depend on the processing

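For 6 h against 0 h, 92 genes were called. With only the 6 arrays compared 3 were called, and with the replicate block 465 over all 48 arrays and 571 over the 6. Centring on 13 housekeeping genes left 27, 24 of them among the 92, and cells at 0 h and 24 h before as a joint reference gave 1244, of which 76 were among the 92. At least 2-fold changes numbered 17. Leaving out 1 array gave 23 to 94. The other settings gave 89 to 124: 105 on the 42 arrays without cycloheximide, 89 with trend and robust moderation, 103 after quantile normalization, 103 with the mean of probe sets, 93 without probe sets that can cross-hybridise and 124 among genes above the median level. With the mean of probe sets, 70 of the calls were among the 92. That setting ended the calls of Dixdc1 (limma adjusted p = 0.0845), Ets2 (0.153), Pdgfra (0.0644) and Slc43a2 (0.19), which thus depend on the probe set used. For 6 h against 3 h, 12 genes were called: 0 with only the 6 arrays by limma (1254 at an unadjusted p under 0.05), 37 and 42 with the replicate block over 48 and 6 arrays, 0 with housekeeping centring by limma (305 unadjusted), 6 without cross-hybridising probe sets, 5 at 2-fold or more, and 0 to 6 without 1 array. For that step the mean of probe sets gave 8 calls, 4 of them among the 12. From 9 h against 6 h, limma called 0 genes in every setting, with 594 at an unadjusted p under 0.05 in the fit without the block. Of the 65 genes that the naming rule gave, none that was called reversed its direction under any of these settings. The share of rises among the calls did move. For 6 h against 0 h it was 29.3%, but 66.7% with only the 6 arrays and 52.2% without replicate 1 of 6 h. For 6 h against 3 h it was 33.3%, but 52.9% after quantile normalization and 66.7% (2 of 3 calls) without replicate 1 of 6 h. It also moved down, to 12.5% with the mean of probe sets and 0.0% without replicate 3 of 3 h or replicate 2 of 6 h. Among these 65 the block over 48 arrays ended 0 calls, brought 7 past the threshold (Acta1, Ccnd1, Cdkn1a, Ckm, Msmo1, Myh3 and Rbm12) and changed no other call. Genes named only for their blocked call are outside the 65. The block over the 6 arrays brought 11 of the 65 past the threshold, those 7 with Hivep3, Igf2, Myf5 and Myog, and ended the calls of Ets2 (0.076) and Lrig1 (0.0544). Of the 65, 41 lost their call with only the 6 arrays and 28 with housekeeping centring. The median difference of all genes was 0.004 as deposited, 0.002 after quantile normalization and −0.005 after housekeeping centring. RMA values near the low end of the scale understate changes, which limits genes such as Klhl40 and Creb5.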

Other observations

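With the replicate number as a block, 307 genes were called at 6 h that were in none of the gene lists and were not called without the block, 117 risen and 190 fallen. The genes named from this set were chosen after their values were seen, from among those with the largest differences. Several that rose belong to muscle. Synpo2l, an actin-associated protein of the Z-disc, went from 8.75, 7.25 and 8.01 to 10.07, 8.91 and 9.81 at replicates 1, 2 and 3, a difference of 1.59 (adjusted p = 0.109 without the block and 0.00328 with it). Tmem182, a muscle membrane protein, differed by 1.53 (0.364 and 0.0142). Erbb3, a receptor for neuregulin, went from 5.90, 4.83 and 5.91 to 7.82, 6.03 and 7.29, a difference of 1.50 (0.166 and 0.00137). Sntb1, a syntrophin of the dystrophin complex, differed by 1.17 (0.379 and 0.0262), and the kinase genes Pak3 and Mylk4 by 1.27 (0.196 and 0.0195) and 1.15 (0.284 and 0.0258). In Synpo2l, Tmem182 and Erbb3, replicate 2 was the lowest at both times, as in the median of the sarcomere genes.

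Among the falls of this set, Cd24a, a surface glycoprotein, went from 7.52, 7.997 and 7.73 to 5.88, 6.75 and 6.05, a difference of −1.53 (0.0568 and 0.0164). The keratin gene Krt19 differed by −1.01 (0.0776 and 0.00281), Rgs4, a brake on G protein signals, by −0.92 (0.0976 and 0.00571), and the potassium channel gene Kcnh2 by −0.91 (0.0536 and 0.00544).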
